A study of Mus musculus with 6 samples.

Results

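Pancreatic beta cells are recognised by a set of transcripts for the hormones they secrete, the transcription factors that keep the insulin genes active, and the enzymes and granule proteins that turn proinsulin into stored insulin. Here 37 such genes were looked up by symbol in a table of 54532 genes, and each symbol matched 1 row. The libraries compared were 3 labelled PP2Ac knockdown (titles with sh2) and 3 labelled control (titles with shc). PP2Ac is the part of protein phosphatase 2A that removes phosphate from serine and threonine. All 6 libraries are labelled MIN6, a mouse insulinoma line described in the labels as a pancreatic beta cell line, and no lipid or other treatment is given for either group. The labels do not say whether the knockdown cells are 1 clone or a pool, nor whether libraries of a group came from separate cultures. The p-values below therefore only set the difference between the group means against the scatter of the 6 samples within their groups. That scatter may be technical.

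Insulin is made as a precursor, cut by prohormone convertases, trimmed by carboxypeptidase E and packed with zinc, chromogranins and secretogranins into dense-core granules. In mature beta cells Pdx1, Mafa and Neurod1 act together on the insulin promoters, while Nkx6-1, Nkx2-2, Pax6 and Isl1 hold the beta cell programme. Sox9 marks pancreatic progenitor and duct cells, and Aldh1a3 is a marker of beta cells that lose their identity.

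Expression was given as FPKM, the reads of a gene scaled for its length and for the depth of the library. Whole reads could be recovered from these values, 14614737 to 16030939 per library. Ppp2ca, which encodes the alpha isoform of PP2Ac, had 10.1, 11.4 and 10.9 FPKM in knockdown, against 42.5, 34.6 and 35.6 FPKM in control. For Ppp2ca, 28.7% of the control mean was left. Its difference on the log2(FPKM + 1) scale was -1.70 (SE 0.092, limma adjusted p = 5.35e-06), and an exact permutation test (two-sided) gave p = 0.1, the lowest value open to 2 groups of 3. Ppp2cb, the beta isoform of PP2Ac, was more abundant, at 86.9 ± 3.45 FPKM in knockdown and 101.0 ± 10.6 FPKM in control (SD, n = 3 each). This difference was short of the threshold (limma adjusted p = 0.066). The groups did not overlap for Ppp2cb, and the exact permutation test again gave p = 0.1. Expression differed broadly between the groups. Of 11652 genes with a mean of at least 1 FPKM over the 6 libraries, 62.4% passed a limma adjusted p of 0.05, 33.3% higher and 29.1% lower in knockdown.

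The transcripts that define beta cells went against the label. Of the 37 genes, 8 had a mean of at least 1 FPKM over the 6 libraries, 13 had at least 1 read but a mean below 1 FPKM, and 16 had no read in any library. Among all 22046 protein-coding genes of the table, 45.4% reached a mean of 1 FPKM and 26.5% had no read, against 21.6% and 43.2% of the 37. The gap between the measured classes was wide. The lowest of the 8, Pax6, averaged 2.39 FPKM over all libraries, and the next gene down, Chga, averaged 0.107 FPKM. The libraries are therefore named by their labels, and the 37 genes are described as a list without the assumption that the RNA came from typical beta cells. In RNA from many cells, fewer cells that express a gene and less RNA per cell cannot be told apart.

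**Figure D1:**
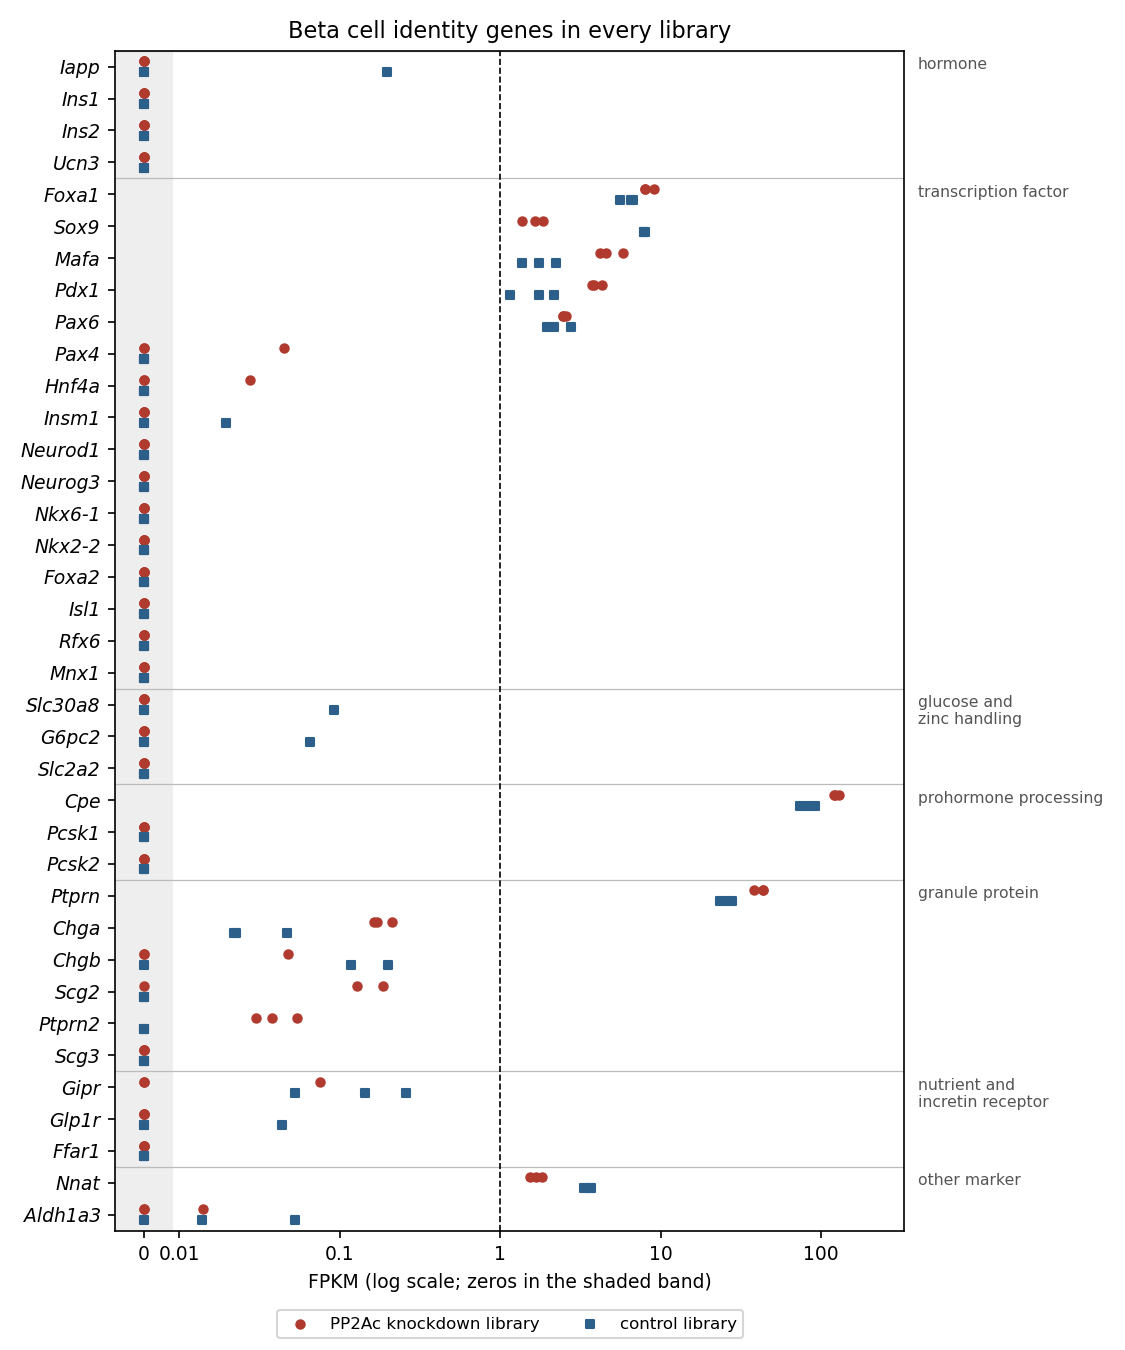
FPKM of each of the 37 genes (log axis, zeros in the shaded band) in the 3 PP2Ac knockdown libraries (red circles) and the 3 control libraries (blue squares), grouped by role. The dashed line marks 1 FPKM; 8 genes lie to its right as a mean over the libraries, and 16 have every library at 0.

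The insulin genes head the list of transcripts that were not detected, while 2 factors that act on their promoters were measured, so the windows before Ins1 and Pdx1 are shown. The sequences are the 250 bases before the RefSeq start of each gene on GRCm38.p6, both on the plus strand, at chr19:52264047-52264296 for Ins1 and chr5:147269847-147270096 for Pdx1. Capitals mark TAAT, the core bound by homeodomain factors such as Pdx1, and CANNTG, the E box bound by basic helix-loop-helix factors such as Neurod1, on either strand. The RefSeq start of Pdx1 lies downstream of the gene start in the table, so the last 138 bases of its window fall inside the gene as the table places it. The Ins1 window ends at 52264296, before the gene start of 52264323 in the table. Bases outside each window were not searched.
Ins1: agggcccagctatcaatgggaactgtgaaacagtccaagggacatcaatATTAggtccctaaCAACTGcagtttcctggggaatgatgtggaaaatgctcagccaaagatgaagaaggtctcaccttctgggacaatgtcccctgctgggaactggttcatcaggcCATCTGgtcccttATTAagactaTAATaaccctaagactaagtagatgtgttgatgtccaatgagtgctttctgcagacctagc
Pdx1: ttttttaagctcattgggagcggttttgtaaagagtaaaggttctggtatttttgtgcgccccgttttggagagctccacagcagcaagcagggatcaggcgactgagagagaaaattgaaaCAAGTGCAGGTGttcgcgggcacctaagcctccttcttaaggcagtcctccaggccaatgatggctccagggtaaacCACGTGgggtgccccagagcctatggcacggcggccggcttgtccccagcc
The Ins1 window held 3 matches to TAAT and 2 to CANNTG, and the Pdx1 window held 3 to CANNTG, all in its last 138 bases, and none to TAAT. Within these 250 bases, which need not be the whole promoter, neither held TGCTGA, the core of sites bound by Maf factors, or TATAAA, the TATA box. These letters are common: 54.9% of 32817 promoter windows of the same length held TAAT, 66.2% held CANNTG, 16.1% TGCTGA and 12.4% TATAAA. RefSeq windows were at hand for 28 of the 37 genes, 34 windows in all, of which 20 held TAAT, 25 CANNTG, 7 TGCTGA and 1 TATAAA. A match is a description of the letters and does not show that a factor binds.

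None of the 4 hormone genes reached 1 FPKM. Ins1 (ENSMUSG00000035804, chromosome 19, 52264323 to 52265456, plus strand, GRCm38) and Ins2 (ENSMUSG00000000215, chromosome 7, 142678656 to 142743381, minus strand), which encode both mouse insulins, had 0 reads in each of the 6 libraries. A count of 0 has a 95% upper limit of 3 reads, for counting error only. At this depth 3 reads would have been at most 0.198 FPKM for Ins1 and 0.153 FPKM for Ins2. Ucn3, which encodes a peptide of mature beta cells, also had no read, with 3 reads worth at most 0.136 FPKM. Iapp, which encodes the amyloid peptide secreted with insulin, had no read in knockdown and 3 reads in the second control library alone. At these counts no difference between the groups was detectable for any of the 4.

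The transcription factors were split between 5 that were measured and 11 that were nearly or wholly absent from the reads. Nkx6-1, Nkx2-2, Neurod1, Neurog3, Isl1, Foxa2, Rfx6 and Mnx1 had no read in any library, and Pax4, Hnf4a and Insm1 had 1, 2 and 1 read in all. Neurod1, Neurog3 and Nkx2-2 share exonic bases with neighbouring genes in the annotation, but those neighbours were also at or close to 0.

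Mafa, which encodes the MAF factor that binds the insulin promoter in mature beta cells, had 4.58, 5.82 and 4.18 FPKM in knockdown, against 1.37, 2.24 and 1.73 FPKM in control. These values rest on 194, 244 and 171 reads in knockdown and 60, 95 and 78 reads in control. Every knockdown library lay above every control library. The means were 4.86 ± 0.854 FPKM in knockdown and 1.78 ± 0.435 FPKM in control (SD, n = 3 each), 2.73 times as high in knockdown, and Mafa rose by 1.08 on the log2(FPKM + 1) scale (SE 0.15, limma adjusted p = 0.000344). Mafa (ENSMUSG00000047591) lies on chromosome 15, 75745490 to 75748228, minus strand.

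Pdx1, the homeodomain factor needed for pancreas formation and insulin gene activity, had 4.32, 3.75 and 3.82 FPKM in knockdown, against 1.74, 2.15 and 1.16 FPKM in control. The groups did not overlap, with 144, 124 and 123 reads in knockdown and 60, 72 and 41 reads in control. The means were 3.96 ± 0.309 FPKM in knockdown and 1.68 ± 0.499 FPKM in control (SD, n = 3 each), 2.36 times as high in knockdown, and Pdx1 rose by 0.90 on the log2(FPKM + 1) scale (SE 0.14, limma adjusted p = 0.000802). Pdx1 (ENSMUSG00000029644, chromosome 5, 147269959 to 147275848, plus strand) starts inside the gene span of Plut, an antisense transcript on chromosome 5, 147228596 to 147271521, minus strand. The human counterpart of Plut is known to promote PDX1 transcription in beta cells. Plut had 0.594, 0.726 and 0.841 FPKM in knockdown, against 0.151, 0.0623 and 0.118 FPKM in control, from 19, 23 and 26 reads in knockdown and 5, 2 and 4 reads in control. Its mean was below the 1 FPKM filter, and no test of it is given. The annotation lists no exonic base shared by Pdx1 and Plut, and the strand setting of the counting is not given in the sources used here.

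Sox9, the progenitor and duct factor, moved the other way and furthest of the 8 on the log2(FPKM + 1) scale. It had 1.64, 1.85 and 1.36 FPKM in knockdown, against 7.95, 7.87 and 7.85 FPKM in control. The 3 control libraries were nearly equal, and all knockdown libraries lay far below them. The means were 1.62 ± 0.245 FPKM in knockdown and 7.89 ± 0.053 FPKM in control (SD, n = 3 each), so 20.5% of the control mean was left. Sox9 fell by 1.77 on the log2(FPKM + 1) scale (SE 0.091, limma adjusted p = 4.63e-06), and only 0.79% of all tested genes had a difference as low or lower. Sox9 (ENSMUSG00000000567) lies on chromosome 11, 112782224 to 112787760, plus strand.

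Foxa1, a forkhead factor that opens chromatin in endoderm-derived cells, had 7.95, 7.95 and 9.11 FPKM in knockdown, against 5.54, 6.57 and 6.72 FPKM in control. The groups did not overlap, but the step between them was small, and Foxa1 rose by 0.36 on the log2(FPKM + 1) scale (SE 0.092, limma adjusted p = 0.00882). The related gene Foxa2 had no read. Pax6, a paired box factor of all islet endocrine cells and of the eye and brain, had 2.45, 2.45 and 2.56 FPKM in knockdown, against 1.97, 2.16 and 2.75 FPKM in control. Here the third control library lay above all knockdown libraries and the other two below them. The difference of Pax6 on that scale was 0.09 (SE 0.11, limma adjusted p = 0.501) and did not pass the threshold. Its FPKM was computed over 11694 bases, the longest of the 37 genes, and rested on 443, 439 and 448 reads in knockdown and 368, 392 and 528 reads in control.

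**Figure D2:**
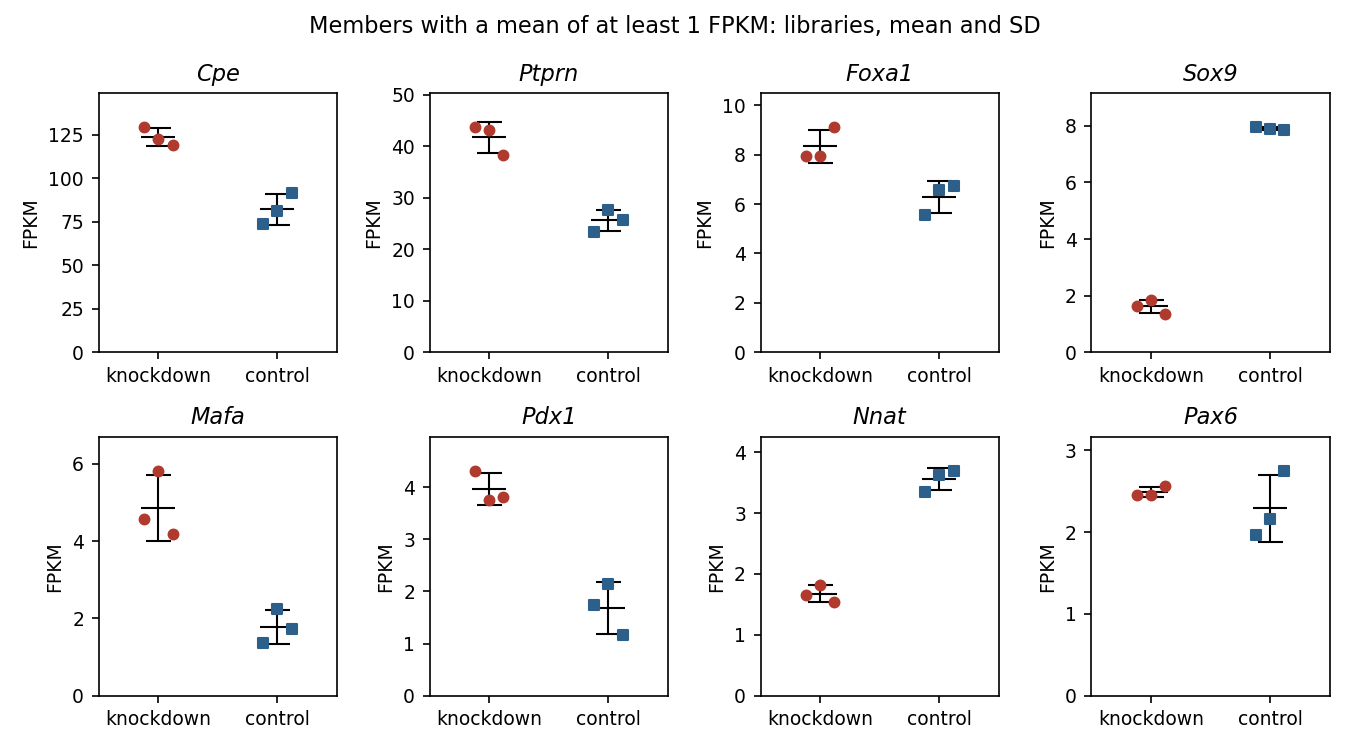
FPKM of the 8 genes with a mean of at least 1 FPKM, by library (points), with the mean and SD of each group of 3 (bars); knockdown is left of control and each axis starts at 0. The groups overlap for Pax6 and for none of the other 7, and Sox9 and Nnat are the 2 genes with knockdown below control.

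Of the 3 prohormone processing genes, Cpe was abundant and both convertases were absent from the reads. Pcsk1 and Pcsk2, which cut proinsulin, had no read in any library, where 3 reads would be at most 0.0358 and 0.0254 FPKM. Cpe, the carboxypeptidase that trims the cut hormone and is also made in brain and other endocrine tissue, had 129, 122 and 119 FPKM in knockdown, against 73.8, 81.2 and 91.6 FPKM in control. All knockdown libraries lay above all control libraries. The means were 123.7 ± 5.22 FPKM in knockdown and 82.2 ± 8.95 FPKM in control (SD, n = 3 each), and Cpe rose by 0.59 on the log2(FPKM + 1) scale (SE 0.089, limma adjusted p = 0.000638). Its level was at or above that of 98.2% of genes with a read in knockdown and 97.7% in control.

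Granule proteins showed the same division. Ptprn, which encodes the granule membrane protein IA-2, an autoantigen of type 1 diabetes, had 43.7, 43.2 and 38.3 FPKM in knockdown, against 23.4, 27.7 and 25.6 FPKM in control. The groups were well apart. The means were 41.7 ± 3.005 FPKM in knockdown and 25.6 ± 2.13 FPKM in control (SD, n = 3 each), and Ptprn rose by 0.69 on the log2(FPKM + 1) scale (SE 0.085, limma adjusted p = 0.000227). The antisense gene Gm28294 shares 189 exonic bases with Ptprn, and had 0 reads in knockdown and 0, 2 and 2 reads in control, beside 1592 to 2869 reads of Ptprn. Cpe and Ptprn together made up 87.6% of the summed mean FPKM of the 37 genes in knockdown and 81.8% in control. That sum was 188.8 ± 7.84 FPKM in knockdown and 131.7 ± 11.3 FPKM in control (SD, n = 3 each).

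The remaining granule genes were near the limit of detection, and their reads are given in place of levels. Chga, which encodes chromogranin A, a core protein of dense-core granules, had 7, 9 and 7 reads in knockdown, against 1, 2 and 1 in control. Ptprn2, the close relative of Ptprn, had 4, 5 and 7 reads in knockdown and none in control. Chga and Ptprn2 both separated the groups in every library, but how many genes with so few reads do so was not counted. No fold is given where control had no read, since the few knockdown reads carry counting error of their own. Scg2, which encodes secretogranin II, had 5, 0 and 7 reads in knockdown and none in control. Its groups overlapped, with 1 knockdown library at 0. Chgb, which encodes chromogranin B, had 0, 2 and 0 reads in knockdown, against 0, 5 and 9 in control. Its groups overlapped at 0. Scg3 had no read in any library.

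A count-based fit, limma voom on the recovered reads of 18545 genes with at least 10 reads in all, was added after these values had been seen, and 51.3% of genes passed in it, 24.1% higher and 27.2% lower. Chga, Ptprn2, Scg2, Chgb and Gipr entered that fit mainly through the group in which they had reads. Their p-values from it are therefore not used, and the reads are given as a description.

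Genes for nutrient sensing and granule zinc were close to 0. Slc2a2, the glucose transporter of rodent beta cells, and Ffar1, a fatty acid receptor that raises insulin secretion, had no read in any library. Slc30a8, which loads zinc into granules, had 3 reads and G6pc2, an islet glucose-6-phosphatase, had 2, each in 1 control library. Glp1r, the receptor for the incretin GLP-1, had 1 read in all. Gipr, the receptor for the incretin GIP, had 0, 4 and 0 reads in knockdown, against 8, 14 and 3 in control. The groups overlapped, since the second knockdown library exceeded the third control library.

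**Figure D3:**
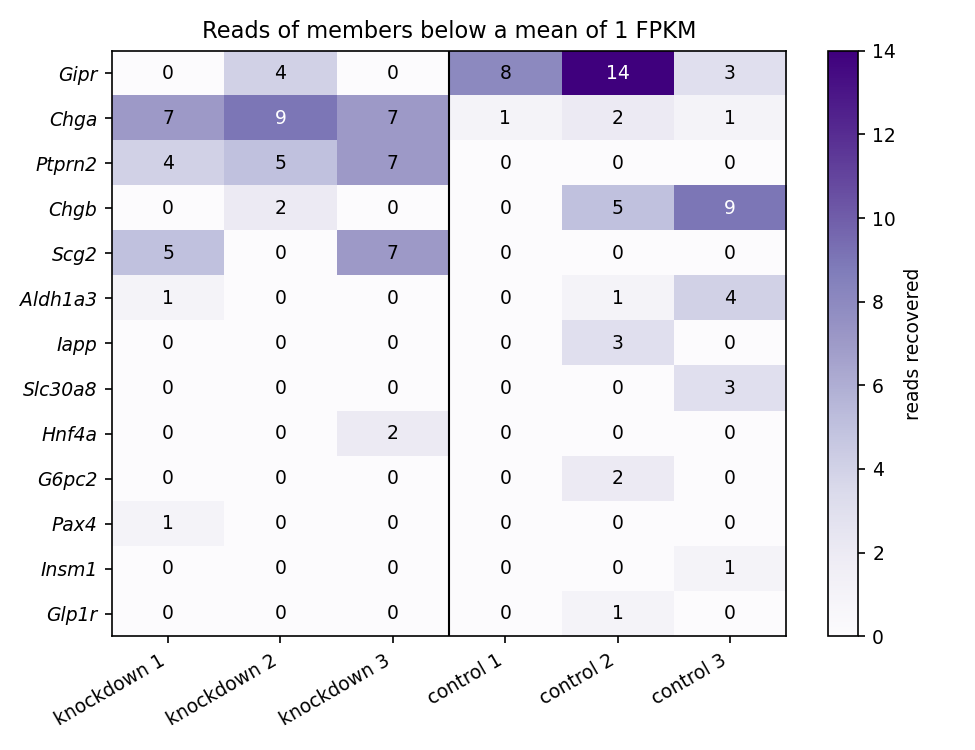
Recovered reads of the 13 genes with at least 1 read and a mean below 1 FPKM, in the 3 knockdown libraries (left) and the 3 control libraries (right); darker cells hold more reads. No cell exceeds 14 reads, and Chga and Ptprn2 are the only 2 of the 13 whose groups do not overlap. The share of all genes with so few reads whose groups do not overlap was not counted.

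Nnat and Aldh1a3 complete the list. Nnat, which encodes neuronatin, a small endoplasmic reticulum protein that aids insulin handling in beta cells and is imprinted, had 1.66, 1.82 and 1.54 FPKM in knockdown, against 3.35, 3.63 and 3.70 FPKM in control. The knockdown libraries all lay below the control libraries, and 47.0% of the control mean was left. Nnat fell by 0.77 on the log2(FPKM + 1) scale (SE 0.093, limma adjusted p = 0.000187). Nnat (ENSMUSG00000067786, chromosome 2, 157560078 to 157562522, plus strand) lies wholly inside Blcap, a gene on the other strand with which it shares no exonic base. Blcap averaged 23.7 ± 0.535 FPKM in knockdown and 20.8 ± 1.64 FPKM in control (SD, n = 3 each), 0.19 apart on the log2(FPKM + 1) scale and not past the threshold (limma adjusted p = 0.057). Aldh1a3 had 1, 0 and 0 reads in knockdown and 0, 1 and 4 in control.

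Over the 8 tested genes, Mafa, Pdx1, Cpe, Ptprn and Foxa1 rose, Sox9 and Nnat fell, and Pax6 did not pass, so 7 of 8 passed beside 62.4% of all tested genes. The groups did not overlap for 7 of 8, beside 68.1% of all tested genes. The median difference of the 8 on the log2(FPKM + 1) scale was 0.47, against 0.03 over all tested genes. All 8 had a mean of at least 1 FPKM in both groups. With 8 genes these shares describe the list and show nothing particular to it. The direction and call of each of the 8 held in every alternative in which it was tested.

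**Figure D4:**
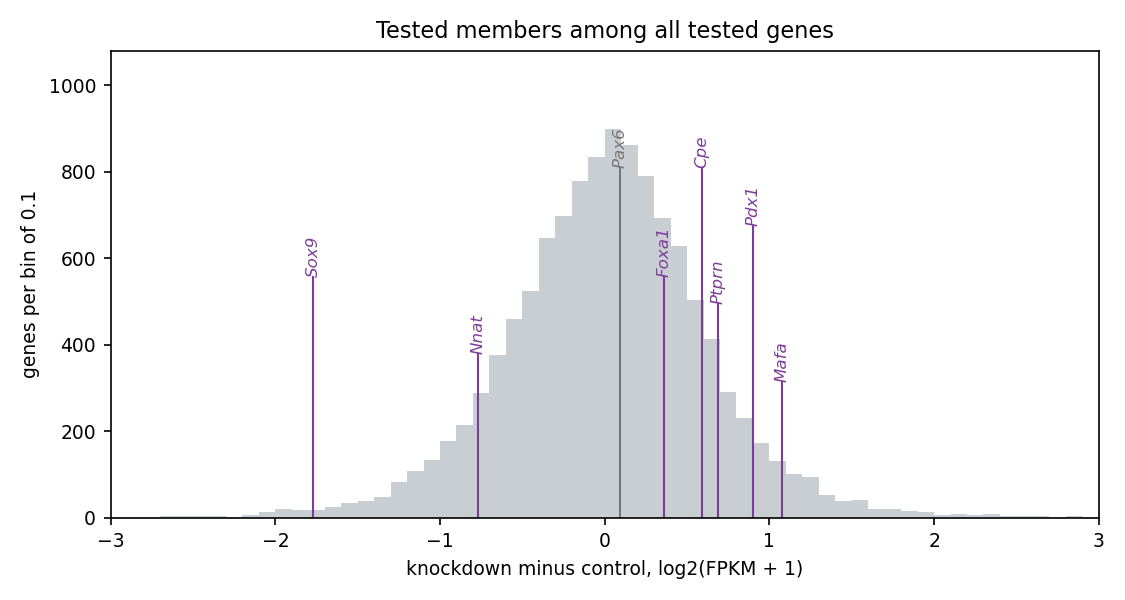
Distribution of the knockdown minus control difference on the log2(FPKM + 1) scale over the 11652 tested genes (grey bars, genes per bin of 0.1; a few genes lie beyond the axis), with a line at the value of each of the 8 tested beta cell identity genes (purple, past the threshold; grey, not past; line heights carry no meaning). Sox9 lies at -1.77, far in the lower tail, and Mafa at 1.08, in the upper part.

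Of 30 further beta cell genes in the table, 7 reached a mean of 1 FPKM and 8 had no read. Of the 7, 3 rose, 1 fell and 3 missed the threshold, so 4 of 7 passed beside 62.4% of all tested genes. Kcnj11, a subunit of the ATP-sensitive potassium channel, had no read, and its partner Abcc8 had 5 in all. Vgf, a neuroendocrine secreted peptide gene, fell to 6.26 FPKM in knockdown, against 11.4 FPKM in control (limma adjusted p = 0.000261), and Gata4, a transcription factor of endoderm and heart, rose to 8.80 FPKM in knockdown, against 5.43 FPKM in control (limma adjusted p = 0.000657).

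Genes for protein folding and granule transport, which most secretory cells use, were mostly present: 19 of 21 were tested, with 8 higher, 9 lower and 2 not past, beside 33.3% higher and 29.1% lower among all tested genes. P4hb, a protein disulfide isomerase gene, rose to 473 FPKM in knockdown, against 216 FPKM in control, and Ero1l, the oxidase that recharges such enzymes, fell to 23.2 FPKM in knockdown, against 66.3 FPKM in control. Of 22 genes that beta cells normally keep low or that mark loss of identity, 15 were tested, with 10 higher, 4 lower and 1 not past, and 5 had no read. Ldha, lactate dehydrogenase A, averaged 473 FPKM in knockdown and 308 FPKM in control, and Slc16a1, a lactate and pyruvate transporter gene, fell to 39.7 FPKM in knockdown, against 67.5 FPKM in control. Rest, which encodes a repressor of neuronal and endocrine genes, averaged 11.3 FPKM in knockdown and 11.2 FPKM in control.

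Markers of other cell types were counted in the same comparison, in which 62.4% of all tested genes passed, 33.3% higher and 29.1% lower. Of 19 mesenchymal markers, 14 were tested, with 9 higher, 2 lower and 3 not past. Their summed level ran from 1410 to 1602 FPKM in knockdown and from 713 to 815 FPKM in control, with Lum at 0. Vim alone averaged 952 FPKM in knockdown and 426 FPKM in control. Of 13 duct markers, 3 were tested and all 3 were lower, with sums of 584 to 630 FPKM in knockdown and 966 to 1111 FPKM in control. Spp1, Krt18 and Anxa2 fell, while Onecut1 and Epcam had no read. The other duct markers were below the filter, among them Krt7, at 0.251 FPKM in knockdown and 0.0178 FPKM in control, and Muc1, at 0.821 FPKM in knockdown and 0.332 FPKM in control. Of 14 markers of the other islet cells, 3 were tested, with Irx1 and Irx2 higher and Etv1 not past, and Gcg, Sst, Ppy and Pyy had no read. The hormone gene Ghrl was below the filter, at 0.222 FPKM in knockdown and 0.873 FPKM in control, from 56 reads in all. Sums of the 14 markers were 52.2 to 53.6 FPKM in knockdown and 33.0 to 35.7 FPKM in control. Of 16 acinar markers only Cela1 was tested, and it was higher, with sums of 2.26 to 2.61 FPKM in knockdown and 0.287 to 0.763 FPKM in control. Of 14 endothelial and immune markers 4 were tested, 3 higher and 1 lower, and Cdh5 and Adgre1 had no read. Their sums were 47.5 to 56.4 FPKM in knockdown and 35.8 to 39.5 FPKM in control. Cd14, the most abundant, averaged 44.2 FPKM in knockdown and 18.2 FPKM in control. Cd68 was the lower one, at 2.27 FPKM in knockdown and 16.5 FPKM in control. Of 14 neuronal and neuroendocrine markers 2 were tested, Tubb3 higher and Eno2 lower, with sums of 10.4 to 11.4 FPKM in knockdown and 12.7 to 15.4 FPKM in control, and Snap25 and Th had no read. These sums mostly follow a few abundant genes and do not measure the share of a cell type. The part of other cell types in the changes of the beta cell identity genes was not tested.

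**Figure D5:**
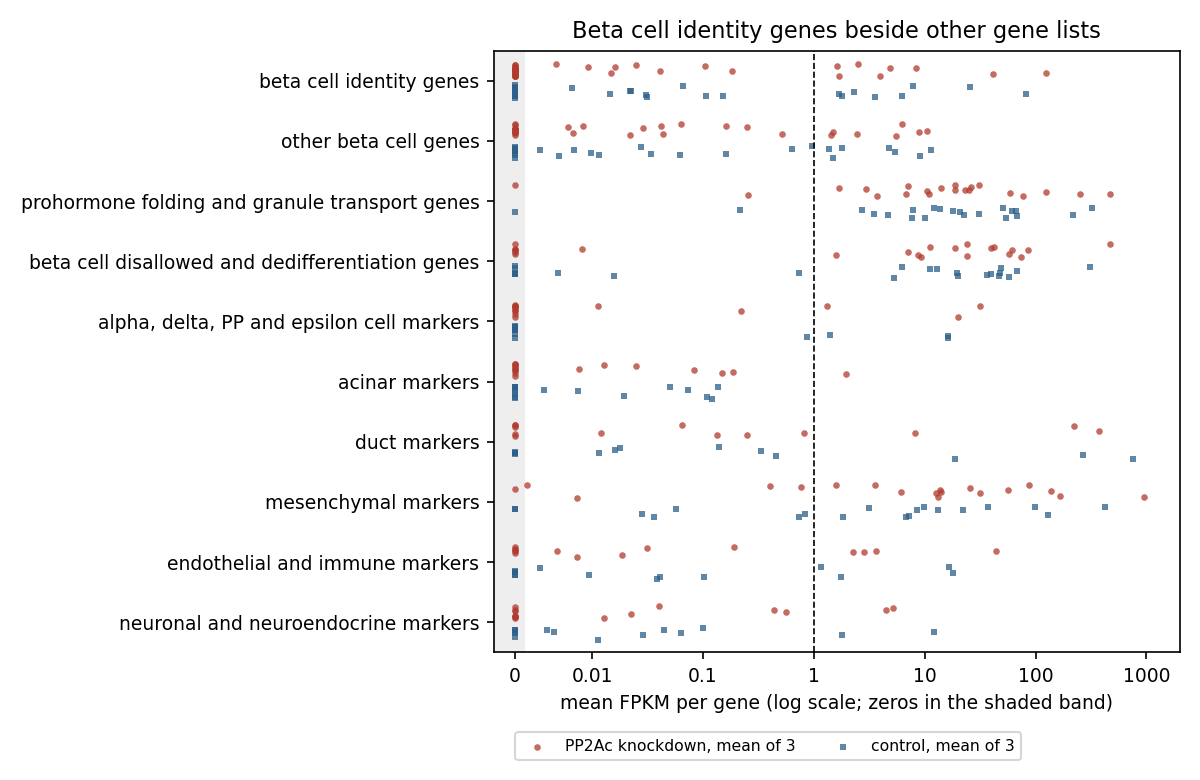
Mean FPKM per gene (log axis, zeros in the shaded band) in knockdown (red circles, above) and control (blue squares, below) for the beta cell identity genes and the 9 other lists; the dashed line marks 1 FPKM. Most beta cell and islet genes lie below the line, while most folding, disallowed and mesenchymal genes lie above it.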

How the data were processed

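RNA from 6 libraries was extracted with Trizol and sequenced after Illumina TruSeq preparation, per the labels' protocols. The authors deposited FPKM values per gene. The submitters' processing notes name the builds GRCm38 and mm10; which aligner, counter and strand setting were used is not given in the sources used here. All 37 genes occur in GENCODE M21, 35 at the same position. FPKM times gene length gave whole reads within 0.01 for 100% of non-zero values. Depth was 14614737 to 16030939 reads, and limits of 3 reads cover counting error only.

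The test was limma 3.58.1 (R 4.3.3; trend) on log2(FPKM + 1), which understates changes of low genes, for genes with a mean of at least 1 FPKM, with Benjamini-Hochberg adjustment over all of them and a threshold of 0.05; the fit was checked on simulated data. All differences are knockdown minus control. Tables were made in Python 3.11.15 (pandas 2.3.3, numpy 2.4.6, scipy 1.17.1). The members and the other lists were chosen with earlier results of these data known. Full statistics were given for members of at least 1 FPKM. Of each other list at most 4 genes with the smallest p, or whose level stands beside a result, are named. Kcnj11, Abcc8, Ldha, Rest, Krt7, Muc1, Ghrl, and the list genes named as having no read, were named after their values were seen. Libraries of a group correlated at 0.986 to 0.989 and of different groups at 0.911 to 0.934 across genes, which are not independent replicates; reads of 2 libraries of a group differed beyond sampling noise (chi-square of 6.66 to 10.2 for each degree of freedom) and were kept apart.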

Additional observations from a re-analysis of the deposited data

How the results depend on the processing

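The direction and side of the threshold of Cpe, Ptprn, Foxa1, Sox9, Mafa, Pdx1, Nnat and Pax6 were the same in every alternative that tested them, 17 for Cpe, Ptprn and Foxa1 and 16 for the others, which a minimum mean of 5 FPKM left out. Ranges on the log2 scale were 0.96 to 1.46 for Mafa, 0.75 to 1.27 for Pdx1, -2.31 to -1.70 for Sox9 and 0.29 to 0.41 for Foxa1, whose adjusted p ran from 0.00643 to 0.0413. The count of changed members, 7 of 8 tested beside 62.4% of all genes, became 3 of 3 with a minimum mean of 5 FPKM. Only Cpe, Ptprn and Foxa1 were then tested, and 67.1% of all genes passed there. The count was 10 of 13 in the voom fit of genes with at least 10 reads, beside 51.3% of all genes. That fit was added after seeing the data. The members counted there beyond the 7, Chga, Ptprn2 and Gipr, entered that fit mainly through the group in which they had reads. Their calls are not used. With no filter on low values Chga also passed, giving 8 of 21 beside 30.1% of all genes. That call rests on 7, 9 and 7 reads in knockdown, against 1, 2 and 1 in control, and is not used either. Ppp2ca ranged from -1.82 to -1.61. Genes called ranged from 5182 of 7728 tested (67.1%), with a minimum mean of 5 FPKM, to 9506 of 18545 (51.3%), in the voom fit with the wider gene set. The share was lowest, at 30.1% (8123 of 26998), with no filter on low values. The median log2 difference of all genes was -0.10 in the voom fit with the wider gene set and lay between -0.04 and 0.08 in the other fits. Leaving out each library in turn gave 6462 to 6950 of 11652 genes (55.5% to 59.6%) and 7 of 8 members.

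The block by replicate number gave 7363 of 11652 genes (63.2%) and 7 of 8 members. Deviations of same-numbered libraries correlated at -0.01, 0.16 and 0.05, and knockdown library 1 correlated best with control library 3 (0.13), so the numbers were not taken as pairs. Members with at least 0.1 FPKM in a group numbered 12, against 8 at 1 FPKM and 11 with at least 3 reads in every library of a group. Depth limits the 29 members below 1 FPKM, where a few reads decide a value.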
